A study of Mus musculus with 6 samples.

Results

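The enzymes that add and remove methyl and acetyl groups on histones, called writers and erasers, were followed in mouse macrophages treated with LPS with or without a MEK inhibitor. Members were chosen by gene name and a count minimum: protein-coding genes of the Kdm, Kmt2, Kmt5, Setd, Ezh, Prmt, Kat, Hdac, Sirt and Tet series with 60 or more counts over the 6 libraries. Of 72 genes with such names, 69 met the minimum, out of 25044 genes in the table. Kdm4d with 1 count, Hdac11 with 19 and Prmt8 with 0 fell short of it. The members with the fewest counts were Tet1 with 124, Setd4 with 187 and Kdm8 with 271, and all 69 were tested.

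The cells were peritoneal macrophages of wild type C57BL/6 mice aged 8 weeks, drawn into the cavity by thioglycollate, an irritant, 3 days before collection, and purified by adherence. After a day in culture, 3 cultures received vehicle (DMSO) and 3 received trametinib at 100 nM for 2 h. Trametinib blocks MEK, the kinase that switches on ERK. LPS, a bacterial ligand of the receptor TLR4, was then added to both groups at 100 ng/ml for 12 h. Every culture thus carried LPS, so the effect of LPS itself is not part of the comparison. The labels name 3 mice but not which animal each library came from, so p values reflect only how far these libraries spread, which may be technical.

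Histone acetyltransferases open chromatin by acetylating lysines, and deacetylases, which need zinc or, in the sirtuins, NAD, reverse this. Lysine methyltransferases and demethylases set marks whose effect depends on the residue: some accompany active promoters and enhancers, others silent genes. Arginine methyltransferases act on histones and also on splicing and ribosomal proteins. TET enzymes oxidise methylated cytosine in DNA, not histones, and are included by the name rule. In macrophages, the demethylase Kdm6b is known as a gene induced by LPS, and Hdac3 as a part of the inflammatory gene programme.

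Library totals ran from 17453778 to 19648467 counts. Levels are given as CPM, the usual unit of counts relative to library size, after TMM scaling. Of 9 macrophage markers all were detected, and their summed level was 15820 to 17620 CPM in vehicle and 14810 to 16480 CPM with trametinib. Single markers moved both ways: 2 rose and 2 fell at an edgeR adjusted p under 0.05 (22.2% each, against 15.8% and 18.4% of all genes). These were 1 and 1 when replicate 1 or 2 of either group was left out. The summed levels of B cell markers (5 genes) and of fibroblast and mesothelial markers (9 genes, Msln at 0) were at most 0.709 and 3.01 CPM in any library. Neutrophil markers (9 genes, Retnlg at 0) summed to 4.29 to 10.5 CPM over both groups, and eosinophil and mast cell markers (8 genes, Mcpt4 at 0) to 4.81 to 8.97 CPM. All 10 tested genes of ERK pathway output were lower with trametinib, each without overlap. The count past the threshold was 6 of 10 with limma-voom, 8 of 11 with no filter, 7 of 10 when any trametinib library was left out, and 9 and 8 of 10 without vehicle replicates 1 and 2. In all 10, vehicle replicate 3 was the lowest vehicle library. The 11 listed genes summed to 463.6, 471.5 and 215.4 CPM in vehicle replicates 1, 2 and 3. With trametinib they summed to 48.2 to 50.4 CPM. The cause of the low sum in vehicle replicate 3 was not tested. Results that rest on vehicle replicate 3 are also given without it. T and NK cell markers (7 genes, nearly all of the sum from Cd4, none at 0) summed to 10.6 to 17.5 CPM in vehicle and 16.3 to 25.4 CPM with trametinib, and dendritic cell markers (5 genes, none at 0) to 1.404 to 2.34 and 2.39 to 3.92 CPM. Cd4 was the 1 tested gene of the T and NK list and passed as higher with the replicate block (edgeR adjusted p 0.00691, against 0.159 without it and at most 0.390 in an alternative). The dendritic sums did not overlap, and the part of such cells in the results was not tested. Of 8 tested proliferation genes 1 fell (Mcm3) and none rose. With the replicate block 1 rose (Mki67, edgeR adjusted p 0.0452) and 2 fell, and without vehicle replicate 3, 2 rose and 2 fell of 10 tested. The adjusted p of Mki67 over the alternatives was 0.0123 to 0.737.

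The members' promoters that carry the main contrasts are shown first. They come from RefSeq (GRCm38.p6, the same assembly as mm10), as the bases before the annotated transcription start, 5′ to 3′ on the gene's strand. Prmt3 and Prmt5 stand for the arginine methyltransferases that fell, and Kat2a and Kat2b for paralogs that moved in opposite directions. Capitals mark a match to 1 of 5 motifs searched on both strands.
Prmt3, chr7:49778108-49778357, plus strand: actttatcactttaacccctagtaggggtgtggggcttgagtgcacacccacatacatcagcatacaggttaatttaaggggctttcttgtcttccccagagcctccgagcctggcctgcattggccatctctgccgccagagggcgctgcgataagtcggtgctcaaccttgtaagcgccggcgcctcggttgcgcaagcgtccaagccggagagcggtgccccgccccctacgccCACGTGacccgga
Prmt5, chr14:54517526-54517720, minus strand: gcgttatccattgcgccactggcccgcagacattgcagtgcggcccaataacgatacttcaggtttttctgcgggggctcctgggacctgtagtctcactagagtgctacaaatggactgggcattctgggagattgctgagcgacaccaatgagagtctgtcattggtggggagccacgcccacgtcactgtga
Kat2a, chr11:100712468-100712717, minus strand: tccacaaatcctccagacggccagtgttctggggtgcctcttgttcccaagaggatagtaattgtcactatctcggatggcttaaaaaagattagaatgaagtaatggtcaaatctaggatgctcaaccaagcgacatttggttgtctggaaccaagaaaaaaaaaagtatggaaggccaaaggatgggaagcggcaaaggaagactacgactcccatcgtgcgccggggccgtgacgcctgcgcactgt
Kat2b, chr17:53566721-53566970, plus strand: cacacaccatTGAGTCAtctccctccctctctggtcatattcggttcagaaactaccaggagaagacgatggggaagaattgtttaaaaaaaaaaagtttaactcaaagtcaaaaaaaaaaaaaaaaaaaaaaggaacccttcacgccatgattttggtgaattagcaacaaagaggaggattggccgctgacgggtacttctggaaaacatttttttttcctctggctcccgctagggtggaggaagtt

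The Prmt3 window held the E-box CACGTG, the site of MYC and MAX, across the gene's start in GENCODE M21, and the Kat2b window held an AP-1 site, TGANTCA. GC content was 60.4% over the 250 bases of Prmt3, 55.9% over the 195 bases of Prmt5 (cut short by 55 bases of its untranslated exon), 48.8% for Kat2a and 40.8% for Kat2b. The CG dinucleotide, the target of DNA methylation, occurred 17, 9, 11 and 6 times in these windows. The Kat2a window overlapped no annotated exon, and the Kat2b window included 55 exonic bases of a noncoding Kat2b transcript.

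Promoter entries were found for 57 of the 69 members. The AP-1 site was present before a start of 3 of the 9 members with an entry that were higher with trametinib (Hdac9, Kat2b and Kdm3a, each with more than 1 annotated start), of 0 of 7 that were lower and of 3 of 41 that did not pass. It occurred in 6.75% of the 32851 windows of all genes. The shares of all genes are per window, whereas a member counted with a match before any of its starts. The 57 members had 77 windows, so the member counts are not directly comparable with these shares. The E-box occurred in 6.02% of all windows, and before 1 of the 7 lower members and 5 of the 41 not past, Prmt1 and Sirt1 among the latter. The ETS site CCGGAAGT (2.88% of windows), the cyclic AMP response element TGACGTCA (1.55%) and the NRF1 site (0.782%) had no match before any member that changed. None of the 5 motifs contains another.

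Members differed widely in abundance, which is compared between genes as CPM per kb of exon. The range was 0.0739 for Tet1 to 47.85 for Kmt5a, which places the single methyl group on histone H4 at mitosis. Kmt5a stood at 270.4, 267 and 249 CPM in the vehicle libraries and 266, 241 and 231 CPM with trametinib, groups that overlapped (log2 fold change −0.09, SE 0.08, edgeR adjusted p 0.425). In the other roles the highest levels per kb were those of Sirt2 (31.8), a mainly cytoplasmic deacetylase, Kdm4a (30.5), Kat2b (21.1), Hdac1 (20.7), Prmt1 (7.36) and Tet3 (5.29). The lowest levels per kb were those of Hdac4 (0.390), Setd4 (0.323), Sirt5 (0.448), Kat6b (0.589), Kdm2b (0.645) and Prmt7 (0.926) in their roles.

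**Figure D1:**
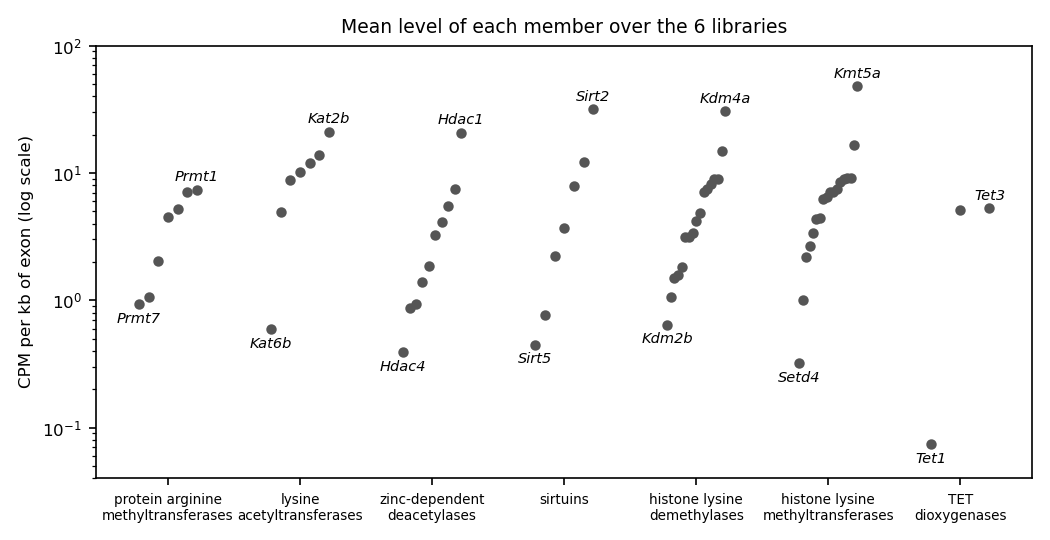
Mean level of each of the 69 members over the 6 libraries, in CPM per kb of exon on a log axis, by role; each point is 1 gene, and the highest and lowest of each role are named. Levels ran from 0.0739 (Tet1) to 47.85 (Kmt5a).

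With trametinib, 10 members rose and 7 fell at an edgeR adjusted p under 0.05, and 52 did not pass. Over all genes tested 34.3% passed, with 15.8% higher and 18.4% lower, so the members' 14.5% higher lay near the background and their 10.1% lower below it. The median log2 fold change was 0.09 over the members and −0.01 over all genes. The groups did not overlap in 18 members with trametinib above and 11 with trametinib below, against 23.4% and 25.9% of all genes, 49.3% in sum. Changes past the threshold reached 1.5-fold in 8 members (15.4% of all genes) and 2-fold in 2, Prmt7 and Hdac4. By role, falls lay among arginine methyltransferases (4 of 7), rises among lysine demethylases (3 of 17) and lysine methyltransferases (2 of 18), and both directions among deacetylases (4 higher and 1 lower of 10) and acetyltransferases (1 and 1 of 7). No sirtuin of 7 passed, and 1 of 3 TET genes fell.

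These counts moved with single libraries. The members that rose were 7 without trametinib replicate 1 (9.33% of all genes) and 8 without vehicle replicate 1 (9.89% of all genes), and 10 with TMM factors made without the most abundant and mitochondrial genes (15.9% of all genes) or with limma-voom (16% of all genes). Without vehicle replicate 3, 19 members rose (19.3% of all genes) and 10 fell (21.4% of all genes), and all 17 that passed with every library were among them. Of the 17, 12 passed in each of 13 alternative analyses, 7 of them higher and 5 lower, and the other 5 were Tet3, Kmt2c, Prmt6, Hdac6 and Hdac7. With the replicate number as a block, 15 rose (20.5% of all genes) and 9 fell (22.4% of all genes), again with all 17 included. In bulk RNA, a lower level per cell and fewer cells of a type that expresses the gene cannot be told apart.

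**Figure D2:**
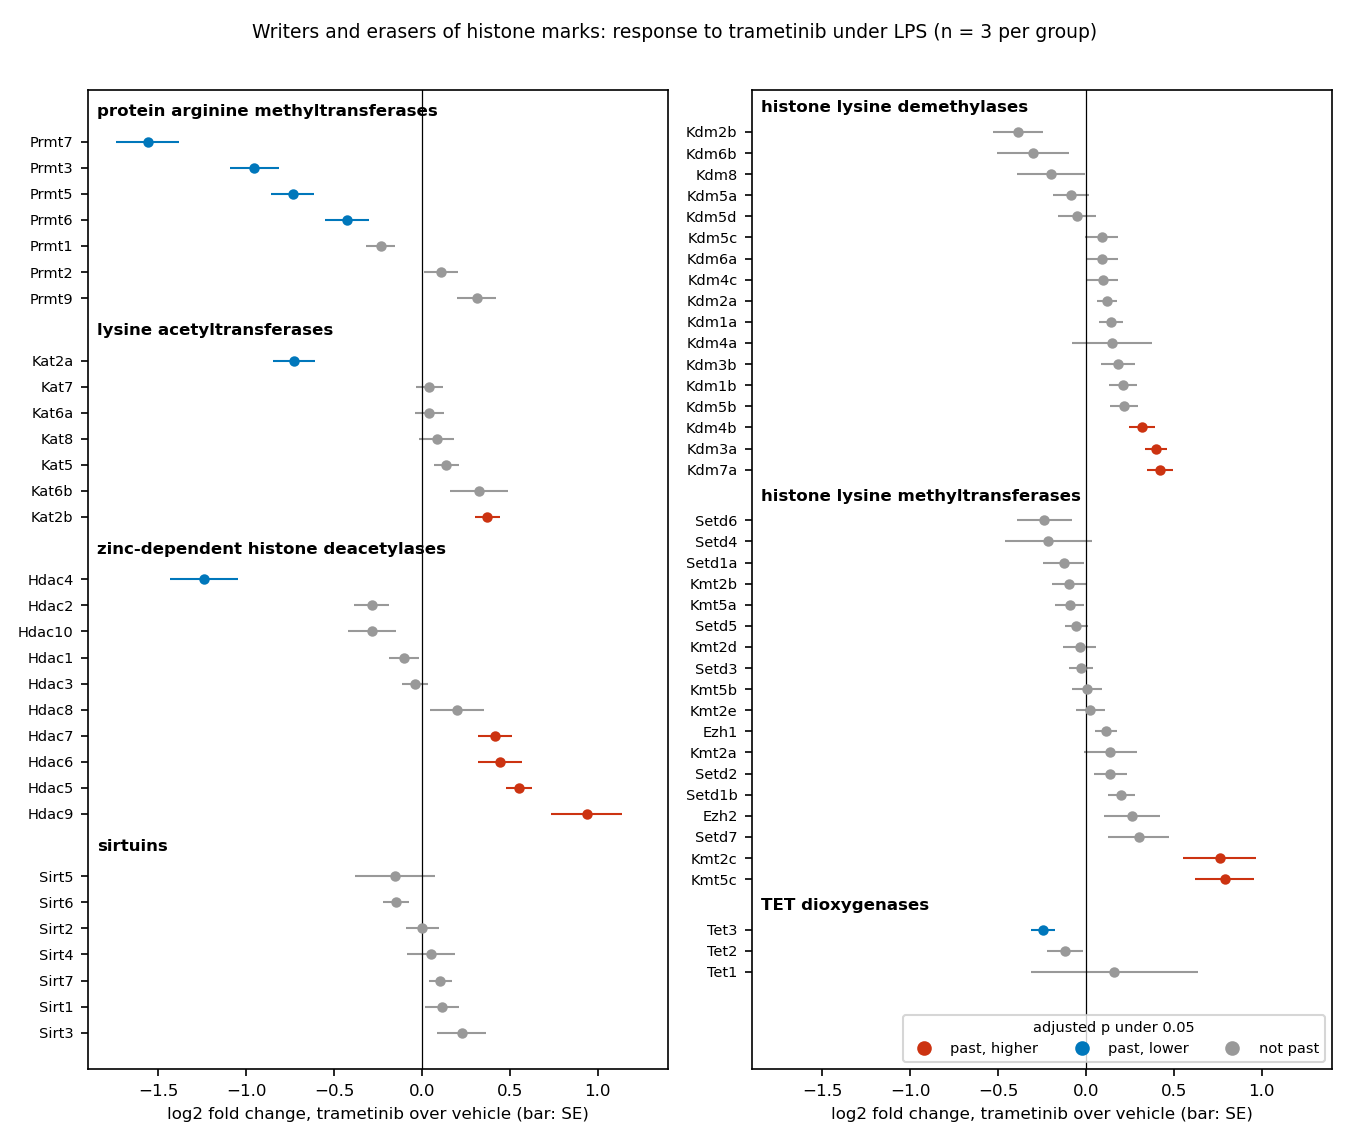
Log2 fold change of trametinib over vehicle for each of the 69 members, by role, with its SE as a bar (n = 3 per group); red and blue points passed an edgeR adjusted p under 0.05 and grey points did not. The points of Prmt7 (−1.56) and Hdac4 (−1.24) lie farthest to the left and that of Hdac9 (0.94) farthest to the right.

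Arginine methyltransferases were the role with the most falls. Prmt7, which adds single methyl groups to arginine (ENSMUSG00000060098, mm10 chromosome 8, 106210936 to 106252794), stood at 8.69, 8.37 and 8.37 CPM in vehicle and at 3.01, 2.095 and 3.51 CPM with trametinib. The vehicle libraries lay close together and above every trametinib library, 2.95-fold on the fitted scale (log2 fold change −1.56 with SE 0.18, adjusted p 0.000502). Prmt3, which methylates a protein of the small ribosomal subunit (chromosome 7, 49778346 to 49858265), stood at 9.14, 8.59 and 7.29 CPM in vehicle and 4.20, 3.975 and 4.73 CPM with trametinib. It fell 1.94-fold (log2 fold change −0.95 with SE 0.14, adjusted p 0.00133), without overlap. These are low counts: 613 and 682 reads over the 6 libraries.

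Prmt5, the main enzyme of symmetric arginine dimethylation (chromosome 14, 54507187 to 54517525), stood at 20.8, 24.0 and 21.65 CPM in vehicle and 11.7, 12.5 and 15.8 CPM with trametinib. The groups were apart, and trametinib replicate 3 was the nearest to vehicle (log2 fold change −0.74 with SE 0.12, adjusted p 0.00240). Prmt6, a nuclear enzyme of asymmetric dimethylation, stood at 9.585, 10.7 and 9.18 CPM in vehicle and 7.86, 6.34 and 7.74 CPM with trametinib (log2 fold change −0.43 with SE 0.13, adjusted p 0.0289). This call for Prmt6 was lost with DESeq2 (adjusted p 0.0661) and on leaving out vehicle replicates 1 or 2 (0.0692 and 0.107) or trametinib replicates 1 or 2 (0.0545 and 0.0945). Its alternatives ran from 0.01795 to 0.107.

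Prmt1, which makes most asymmetric dimethylarginine and was the most abundant of the role per kb, stood at 27.4, 27.9 and 26.5 CPM in vehicle and 24.1, 21.2 and 24.2 CPM with trametinib. Its groups were apart but it did not pass (log2 fold change −0.23 with SE 0.08, adjusted p 0.0555). It passed with the replicate block (0.0488) and without vehicle replicate 3 (0.0401), with extremes of 0.0401 and 0.180 among the alternatives. Prmt2 and Prmt9, which methylates a splicing factor, did not pass at log2 fold changes of 0.11 and 0.31, with adjusted p 0.409 and 0.0567. Prmt9 passed as higher without vehicle replicate 3 (adjusted p 0.003325), with median-ratio size factors (0.0496) and with no filter (0.0312), and reached 0.183 in another alternative.

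Partners of Prmt5 were on the list of complex subunits. Wdr77, which forms the methylosome with Prmt5, fell from 9.98 ± 0.636 to 6.00 ± 0.929 CPM (mean and SD of 3 libraries, log2 fold change −0.73, edgeR adjusted p 0.00378). Clns1a, which brings splicing proteins to that complex, fell by 0.34 in log2 terms (adjusted p 0.0165). Both were named after their values were seen, and the Clns1a call was lost without vehicle replicate 2 or trametinib replicate 1 (adjusted p at most 0.0643).

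Acetyltransferases held a split between paralogs. Kat2a, also known as GCN5, and Kat2b, known as PCAF, are close relatives that occupy the same place in the SAGA coactivator complex. Kat2a (chromosome 11, 100704746 to 100712465) stood at 37.1, 42.8 and 34.8 CPM in vehicle and 22.1, 20.5 and 26.7 CPM with trametinib, a fall of 1.66-fold without overlap (log2 fold change −0.73 with SE 0.12, adjusted p 0.00212). Kat2b (chromosome 17, 53566861 to 53672720) stood at 88.2, 85.4 and 94.8 CPM in vehicle and 119, 121 and 108 CPM with trametinib. It rose 1.295-fold, also without overlap (log2 fold change 0.37 with SE 0.07, adjusted p 0.00427).

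Per kb, Kat2b over Kat2a was 1.70, 1.43 and 1.95 in the vehicle libraries and 3.84, 4.215 and 2.90 in the trametinib libraries. Kat2b was thus the more abundant of the pair in every library, and the ratio was higher in each trametinib library than in each vehicle library. The pair was picked out after its values were seen, so the ratio is a description. How reads shared by such paralogs were counted is not given in the sources used here. Tada2b, an adaptor gene of SAGA, and its relative Tada2a fell by 0.37 and 0.77 in log2 terms (edgeR adjusted p 0.0297 and 0.0126). Both were named after their values were seen. Leaving out single libraries lost the call for Tada2a in 3 cases (adjusted p at most 0.0571) and for Tada2b in 4, as did DESeq2 for Tada2b (at most 0.107). Other subunits of SAGA on the same list did not pass: Tada3, Sgf29 and Trrap had log2 fold changes of 0.02, −0.14 and 0.16, with adjusted p 0.857, 0.472 and 0.222.

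The MYST acetyltransferases Kat5, Kat6a, Kat6b, Kat7 and Kat8 did not pass, with log2 fold changes of 0.04 to 0.32 (adjusted p 0.160 to 0.725). Kat6b, named after its values were seen, passed with the replicate block (adjusted p 0.0311, the lowest of its alternatives, which reached 0.429) and without vehicle replicate 3, so that 2 acetyltransferases rose there. It stood at 8.86, 7.19 and 10.4 CPM in vehicle and 10.9, 9.24 and 12.9 CPM with trametinib. In each group replicate 2 was the lowest and replicate 3 the highest.

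Among zinc-dependent deacetylases, the class IIa enzymes moved apart. Hdac4, Hdac5, Hdac7 and Hdac9 shuttle between cytoplasm and nucleus and repress targets of MEF2 factors. Hdac4 (chromosome 1, 91928779 to 92195699) stood at 9.47, 8.70 and 7.78 CPM in vehicle and 4.91, 3.01 and 3.12 CPM with trametinib. It fell 2.36-fold without overlap (log2 fold change −1.24 with SE 0.19, adjusted p 0.00183). Hdac5 (chromosome 11, 102194432 to 102230166) stood at 38.6, 37.5 and 40.7 CPM in vehicle and 59.5, 53.4 and 58.2 CPM with trametinib, a rise without overlap (log2 fold change 0.55 with SE 0.07, adjusted p 0.000923).

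Hdac9 (chromosome 12, 34047580 to 34917095) stood at 7.175, 8.81 and 12.4 CPM in vehicle and 17.1, 21.2 and 16.1 CPM with trametinib. It rose 1.92-fold, with vehicle replicate 3 the nearest vehicle library to the other group (log2 fold change 0.94 with SE 0.20, adjusted p 0.0101). Hdac7 rose less (log2 fold change 0.41 with SE 0.10, adjusted p 0.0107), from 20.1, 19.7 and 17.2 to 27.4, 25.35 and 23.3 CPM. Its adjusted p was 0.0522 without trametinib replicate 1, with extremes of 0.00423 and 0.0522 among the alternatives. Hdac7 overlaps Slc48a1 on the opposite strand, which held 27772 counts against 2384 for Hdac7, and the strand setting is not given in the sources used here. Slc48a1 showed a log2 fold change of −0.19 (adjusted p 0.186).

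The ratio of Hdac5 to Hdac4 per kb was 7.33 to 9.43 in vehicle and 21.85 to 33.6 with trametinib. That of Hdac9 to Hdac4 was 0.817 to 1.72 in vehicle and 3.77 to 7.59 with trametinib, so Hdac9 was near Hdac4 in level in the vehicle libraries and above it in each trametinib library. These ratios too were chosen after the values were seen.

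**Figure D3:**
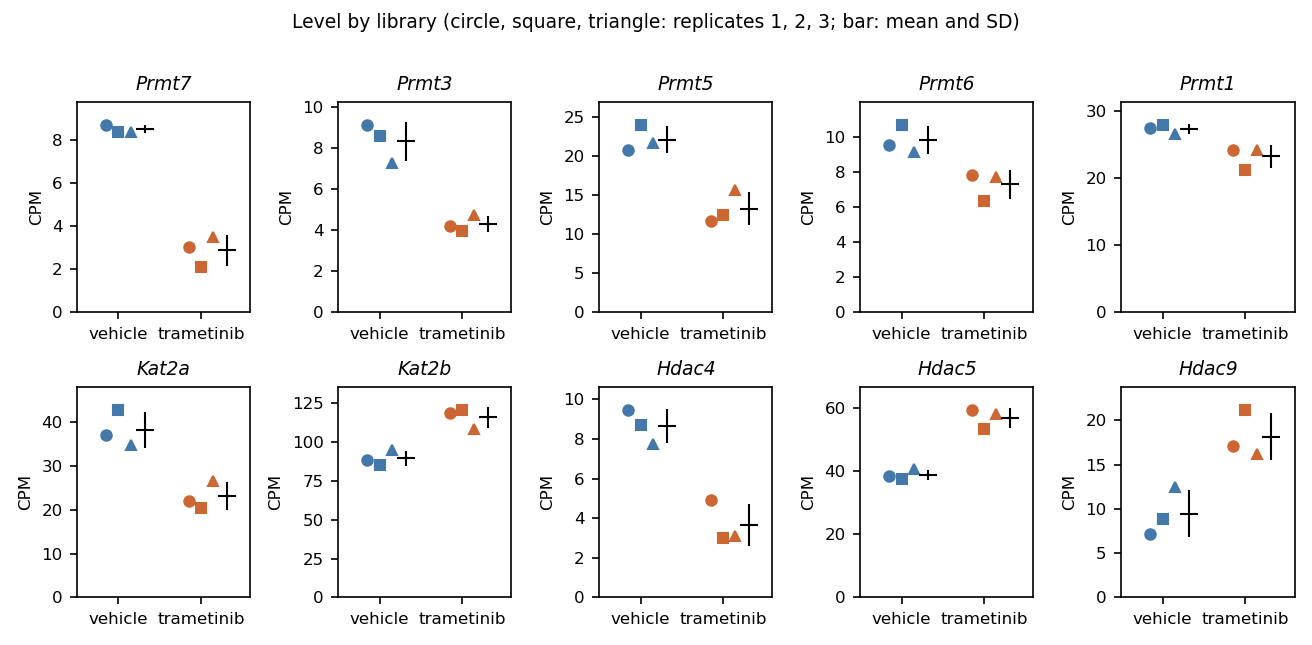
Level in CPM of 10 arginine methyltransferases, acetyltransferases and deacetylases in each vehicle and trametinib library; symbols are replicates and the bar is the mean and SD (n = 3). Kat2a and Hdac4 lie lower with trametinib where their relatives Kat2b, Hdac5 and Hdac9 lie higher, and no panel shows overlap, although Prmt1 did not pass the test.

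**Figure D4:**
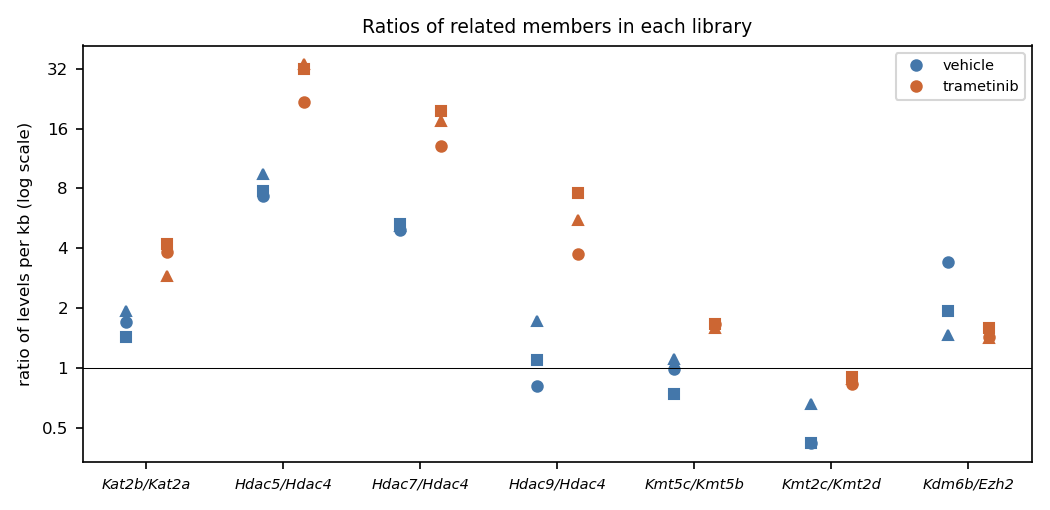
Ratio of levels per kb between related members in each library, on a log axis; the colour gives the group and the shape the replicate. The groups are apart in the first 6 pairs, as for Kat2b over Kat2a (1.43 to 1.95 in vehicle, 2.90 to 4.215 with trametinib). They overlap for Kdm6b over Ezh2. Each of the 6 pairs holds a member whose own groups were apart, so these ratios are a description and add no support.

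Hdac6, a cytoplasmic deacetylase of tubulin, stood at 8.97, 9.65 and 8.69 CPM in vehicle and 13.8, 10.5 and 13.0 CPM with trametinib (log2 fold change 0.445 with SE 0.12, adjusted p 0.0233). Hdac6 no longer passed when vehicle replicate 1 (adjusted p 0.07195), trametinib replicate 1 (0.0949) or trametinib replicate 3 (0.0612) was left out, with extremes of 0.0123 and 0.0949 among the alternatives. Without trametinib replicate 1, 2 deacetylases rose in place of 4. Hdac3, the catalytic subunit of NCOR corepressors, did not pass, at 32.01, 31.01 and 29.2 CPM in vehicle and, overlapping, 30.5, 29.7 and 29.4 CPM (log2 fold change −0.04 with SE 0.07, adjusted p 0.694). The nuclear enzymes Hdac1 and Hdac2 did not pass at log2 fold changes of −0.10 and −0.29, with adjusted p 0.380 and 0.0521. Hdac2 passed with the replicate block (0.0492) and without trametinib replicate 3 (0.0414), with extremes of 0.0414 and 0.185 among the alternatives. Hdac8 and Hdac10 did not pass.

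The 7 sirtuins had log2 fold changes of −0.15 to 0.23 and adjusted p of 0.159 to 0.990. Sirt1, a nuclear deacetylase that acts on the NF-kappaB subunit RelA among other proteins, stood at 18.4, 17.3 and 21.2 CPM in vehicle and 19.6, 21.4 and 20.5 CPM with trametinib, which overlapped (log2 fold change 0.11 with SE 0.10, adjusted p 0.395). Sirt2 stood at 170.4, 158 and 152 CPM in vehicle and 179, 157 and 145 CPM with trametinib (log2 fold change 0.00 with SE 0.09, adjusted p 0.990). The mitochondrial Sirt3, Sirt4 and Sirt5 were all under 6 CPM.

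Of the lysine demethylases, 3 rose and none fell. Kdm3a, which removes a repressive mark of histone H3, stood at 50.6, 47.5 and 51.4 CPM in vehicle and 65.4, 66.0 and 65.6 CPM with trametinib. The trametinib libraries agreed closely and all lay above vehicle (log2 fold change 0.40 with SE 0.06, adjusted p 0.001985). Kdm7a, a demethylase of repressive marks with a PHD finger (chromosome 6, 39136623 to 39206789), stood at 81.1, 79.0 and 70.2 CPM in vehicle and 107, 100.2 and 100.5 CPM with trametinib (log2 fold change 0.42 with SE 0.07, adjusted p 0.00301). An antisense gene that overlaps Kdm7a, 4930599N23Rik, held 433 counts against 9649. It was also higher with trametinib (log2 fold change 0.51, edgeR adjusted p 0.0262). With the strand setting not given, whether the 2 genes share reads was not tested. Kdm4b, a Jumonji enzyme, stood at 22.0, 20.8 and 20.8 CPM in vehicle and 26.4, 26.05 and 26.7 CPM with trametinib, a rise of 1.25-fold without overlap (log2 fold change 0.32 with SE 0.07, adjusted p 0.0101).

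Kdm6b, also known as JMJD3, which removes the Polycomb mark, did not pass. Its levels were 18.6, 12.9 and 10.5 CPM in vehicle and 12.1, 10.0 and 12.0 CPM with trametinib, so the vehicle libraries spread more than the groups differed (log2 fold change −0.30 with SE 0.20, adjusted p 0.288). Without vehicle replicate 3 the log2 fold change was −0.47 and the adjusted p 0.0416, with extremes of 0.0416 and 0.859 among the alternatives. Its relative Kdm6a on the X chromosome had a log2 fold change of 0.09 (SE 0.09, adjusted p 0.439), with 25.0, 24.1 and 27.9 CPM in vehicle and 26.6, 26.4 and 29.2 CPM with trametinib.

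Kdm4a, the most abundant demethylase per kb, showed how libraries of the same number moved together. It stood at 137, 134.5 and 229.6 CPM in vehicle and 175, 165 and 215 CPM with trametinib, with replicate 3 the highest in both groups (log2 fold change 0.15 with SE 0.23, adjusted p 0.656). Without vehicle replicate 3 the log2 fold change was 0.44 and the adjusted p 0.00986, with extremes of 0.00986 and 0.979 among the alternatives. In 24 of the 69 members replicate 3 was the highest library in both groups, against 20.8% of all genes tested. The other demethylases ran from a log2 fold change of −0.39 (Kdm2b, adjusted p 0.0637) to 0.22 (Kdm5b, adjusted p 0.0644). With the replicate block Kdm5b (adjusted p 0.0351, with extremes of 0.0259 and 0.200 among alternatives) and Kdm3b (0.0354, with extremes of 0.0173 and 0.478 among alternatives) passed as higher. The demethylases that rose were 5 with the block and 6 without vehicle replicate 3. Those that fell were 2 without vehicle replicate 3 (Kdm2b and Kdm6b) and 1 without trametinib replicate 3. Kdm5d, on the Y chromosome, was present in each library at 20.6 to 25.7 CPM.

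Lysine methyltransferases had 2 rises. Kmt5c, which adds the final methyl groups to histone H4 in heterochromatin (chromosome 7, 4740115 to 4747514), stood at 12.8, 9.59 and 16.04 CPM in vehicle and 22.5, 20.5 and 23.4 CPM with trametinib. It rose 1.73-fold without overlap (log2 fold change 0.79 with SE 0.17, adjusted p 0.00909). Its paralog Kmt5b had a log2 fold change of 0.01 (SE 0.09, edgeR adjusted p 0.972). The ratio of Kmt5c to Kmt5b per kb was 0.737 to 1.11 in vehicle and 1.59 to 1.67 with trametinib. With Kmt5b little changed, this ratio follows the rise of Kmt5c and is a description.

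Kmt2c and Kmt2d, known as MLL3 and MLL4, are paralogous enzymes that methylate histone H3 at enhancers. Kmt2c (chromosome 5, 25271798 to 25498783) stood at 80.2, 74.1 and 126 CPM in vehicle and 154, 145.5 and 175 CPM with trametinib, apart, with vehicle replicate 3 the nearest (log2 fold change 0.76 with SE 0.21, adjusted p 0.0303). Kmt2d stood at 189, 173 and 188.5 CPM in vehicle and 183, 158 and 196 CPM with trametinib (log2 fold change −0.04 with SE 0.09, adjusted p 0.7995). The call for Kmt2c was lost without a filter on low counts (adjusted p 0.105), when vehicle replicate 1 or 2 was left out (0.0938 and 0.0706) and when any trametinib library was (0.0767, 0.06695 and 0.0907 for replicates 1, 2 and 3). Over the alternatives its adjusted p ran from 1.37e-05, without vehicle replicate 3, to 0.105, and 1 methyltransferase rose in each of the settings that lost it, except without trametinib replicate 2, where Setd1b passed and 2 rose.

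The other methyltransferases had log2 fold changes of −0.24 (Setd6) to 0.30 (Setd7). Setd7, named after its values were seen, which also methylates proteins outside chromatin, stood at 39.3, 34.9 and 53.6 CPM in vehicle and 53.0, 44.9 and 59.6 CPM with trametinib (adjusted p 0.222). The replicate block gave Setd7 an adjusted p of 0.0124 (range 0.00873 to 0.491) and Setd1b 0.0466 (range 0.0250 to 0.255). The risers of this role were then 4, and 6 without vehicle replicate 3. The Polycomb enzyme Ezh2 was low, at 5.21, 6.36 and 6.86 CPM in vehicle and 8.04, 6.07 and 8.07 CPM with trametinib, with overlap (log2 fold change 0.26 with SE 0.16, adjusted p 0.231). Its paralog Ezh1 stood at 59.3, 59.1 and 62.5 CPM in vehicle and 62.9, 65.3 and 67.8 CPM with trametinib (log2 fold change 0.12 with SE 0.06, adjusted p 0.196), apart by a small step. Per kb, Ezh1 was 7.03 to 10.2 times Ezh2 over all 6 libraries. Kdm6b, their opponent on this mark, was 1.47 to 3.43 times Ezh2 in vehicle and 1.42 to 1.59 times with trametinib, which overlapped.

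**Figure D5:**
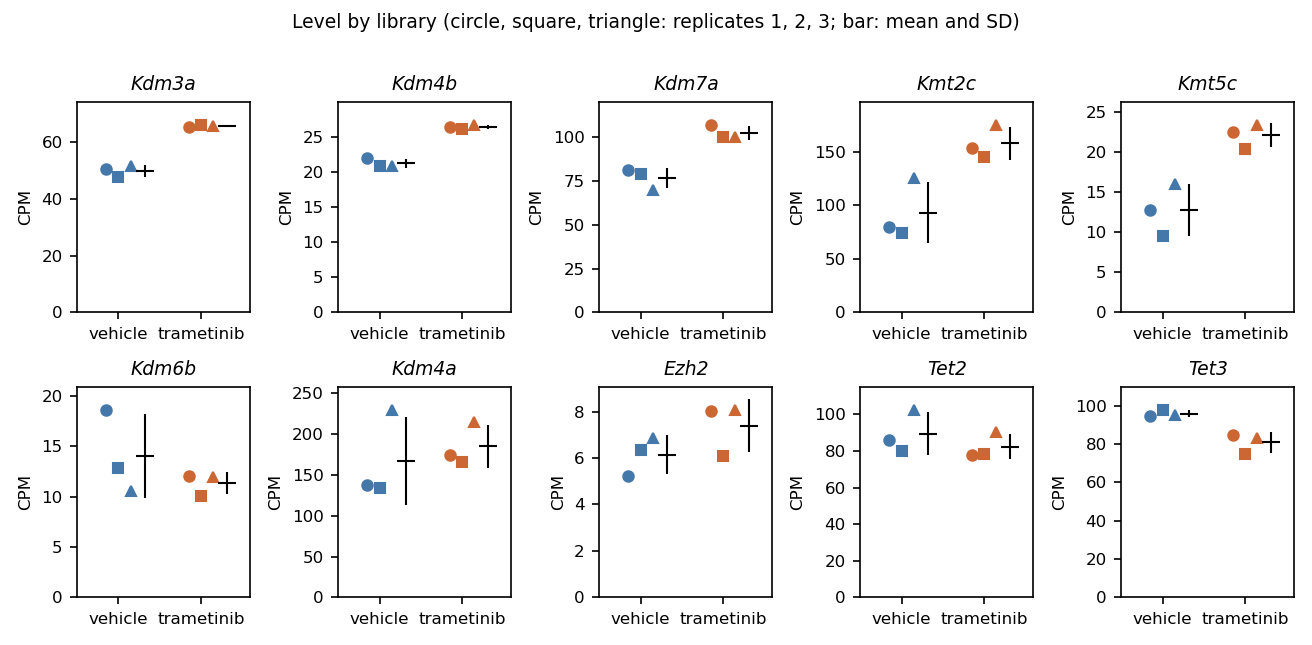
Level in CPM of 10 demethylases, methyltransferases and TET genes in each vehicle and trametinib library; symbols are replicates and the bar is the mean and SD (n = 3). The upper row (Kdm3a, Kdm4b, Kdm7a, Kmt2c and Kmt5c) lies higher with trametinib in every library, while Kdm6b, Kdm4a, Ezh2 and Tet2 overlap and Tet3 lies lower.

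Tet3 stood at 94.3, 97.7 and 95.3 CPM in vehicle and 84.6, 74.7 and 83.2 CPM with trametinib, a fall of 0.24 on the log2 scale without overlap (log2 fold change −0.24 with SE 0.07, adjusted p 0.0223). It was not past without vehicle replicates 1 and 2 (adjusted p 0.0610 and 0.0777) or trametinib replicate 2 (0.0979), with extremes of 0.0146 and 0.0979 among the alternatives. Tet2, which restrains inflammatory genes in macrophages, stood at 86.0, 79.9 and 102.5 CPM in vehicle and 78.1, 78.6 and 90.3 CPM with trametinib (log2 fold change −0.12 with SE 0.10, adjusted p 0.396). Tet1 was low, with 124 counts over all libraries.

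Genes of the same pathways outside the name rule were counted from lists. Of 33 other writers and erasers, 8 rose and 4 fell, 24.2% and 12.1%, against 15.8% and 18.4% of all genes. Ncoa1, a nuclear receptor coactivator, rose from 71.0 ± 1.49 to 99.25 ± 2.87 CPM (mean and SD of 3 libraries, log2 fold change 0.48, edgeR adjusted p 0.000667). Hat1, which acetylates newly made histone H4, rose from 61.8 ± 4.70 to 100.5 ± 18.0 CPM (adjusted p 0.00520), and Dnmt3a, a DNA methyltransferase, showed a log2 fold change of 0.45 (adjusted p 0.01355). Smyd5, a SET and MYND domain methyltransferase, fell from 15.0 ± 0.6895 to 6.21 ± 1.51 CPM (log2 fold change −1.27, adjusted p 0.000715). Jmjd1c, a Jumonji relative of Kdm3a, fell by 0.85 in log2 terms (adjusted p 0.0007155) where Kdm3a rose. The Dnmt3a call was lost without vehicle replicate 1, where the adjusted p was 0.0568, the highest of its alternatives. The risers numbered 2, 3 and 3 without vehicle replicates 1 and 2 and trametinib replicate 1 (9.89%, 10.2% and 9.33% of all genes). The fallers numbered 2 without vehicle replicate 1 or 2 (12.3% and 12.8% of all genes). With the replicate block Carm1, an arginine methyltransferase outside the name rule, also passed as lower (edgeR adjusted p 0.0461, with a highest value of 0.257 among the alternatives).

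Of 54 subunits of the complexes these enzymes work in, 2 rose and 11 fell, with a median log2 fold change of −0.06. These were 3.70% and 20.4%, against 15.8% and 18.4% of all genes, so the share that fell lay near the background. Tbl1xr1, a subunit of NCOR complexes, rose by 0.55 in log2 terms (edgeR adjusted p 0.000755). Kansl3, of an acetyltransferase complex with Kat8, rose by 0.57 (adjusted p 0.00304). Brpf1, a partner of Kat6a and Kat6b, fell by 0.52 (adjusted p 0.00280), and Wdr5, shared by the Kmt2 complexes, fell by 0.48 (adjusted p 0.00317). The fallers numbered 6 without vehicle replicate 1 or 2 (12.3% and 12.8% of all genes). They were 7 without trametinib replicate 1 (11.9% of all genes) and 15 with the replicate block (22.4% of all genes). The risers numbered 7 without vehicle replicate 3, 5 with the block, and 4 with median-ratio size factors, limma-voom or a filter of 1 CPM. Of 6 bromodomain genes, whose products read acetylated histones, Brd2 rose from 588.7 ± 6.93 to 759.6 ± 52.2 CPM (mean and SD of 3 libraries, edgeR adjusted p 0.00650) and Brd9 by 0.27 in log2 terms (adjusted p 0.0446). The Brd9 call was lost with DESeq2 and in 5 of the 6 analyses that left out a library (adjusted p at most 0.157). Brd3 and Brd7 did not pass, with log2 fold changes of −0.06 and −0.14.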

How the data were processed

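RNA of 6 macrophage cultures was sequenced after removal of ribosomal RNA. The authors deposited counts: whole reads per gene, not normalized. HISAT2 2.1.0, featureCounts 1.6.4 and the build mm10 are named, per the submitters' processing notes, beside DESeq2 1.24.0 in R 3.6.0. The annotation, strand setting and treatment of reads with several matches were not given in the sources used here. Of 25354 entries, 310 repeats with identical values were removed, and 25033 of 25044 identifiers were named from GENCODE M21, which also gave positions and exon lengths.

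Genes kept by filterByExpr (11286) were scaled by TMM and compared with edgeR 4.0.16, quasi-likelihood test, robust, with Benjamini-Hochberg adjustment over all genes tested and a threshold of 0.05. The SE of a log2 fold change is its size over the root of F. On simulated counts the procedure recovered 30 of 50 changes of 1.5-fold and 47 of 50 of 2-fold, with 7 false calls among 10992 unchanged genes. The simulation held no effect of replicate number, unlike these libraries, and gave each gene the spread typical of its level. It left 10992 of 11192 genes unchanged, while 34.3% of genes passed in the data. Its recovery may therefore differ from that in these libraries. Smaller changes can be missed.

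Deviations from the group means correlated at 0.339, 0.393 and 0.285 between libraries of the same replicate number and at −0.223 to −0.0724 between others, so the numbers were taken to pair the libraries. The pairing comes from the data, not the labels. The main fit has no block, and blocked values stand where they change the call of a member or the count of a list.

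Members and lists were chosen with earlier results of these data known. By rule, values in each library are given for members past the threshold with a change of 1.5-fold or more, for 10 members discussed in LPS-treated macrophages, and for the most abundant of each role; other members past it are named. The 5 genes with the smallest p are named from each other list of the pathway. Some genes of these lists are not reported here. Alternatives were median-ratio size factors, TMM without the most abundant and mitochondrial genes, no filter, 1 CPM in 3 libraries, DESeq2 1.42.0, limma-voom (limma 3.58.1), a block on replicate number, and the removal of each library in turn. Software was R 4.3.3 for the fits, and Python 3.11.15 with pandas 2.3.3, NumPy 2.4.6 and matplotlib 3.10.9 for tables and plots. Promoter sequences are RefSeq's, searched over the 250 bases before each start.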

Additional observations from a re-analysis of the deposited data

How the results depend on the processing

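Over all genes, 1787 rose and 2082 fell; leaving out 1 library gave 1068 to 2210 higher and 1360 to 2453 lower, with the lowest of both without trametinib replicate 1 and the highest without vehicle replicate 3. Members that rose numbered 7 to 19 and members that fell 5 to 10 in the same analyses, and the 19 came without vehicle replicate 3. With the replicate block, 15 members rose and 9 fell, and 7 calls were gained and none lost. Median-ratio size factors gave 11 members higher and 7 lower, and DESeq2 10 and 6; the other alternatives that kept all libraries gave 10 and 7. Values were followed for the 30 members named by rule, the 17 past among them. Of their 390 values, 361 kept their direction and their side of the threshold, 18 lost the call, 4 gained it and 7 changed sign. Those 7 belong to members that did not pass. Gains of members outside the 30, such as Prmt9, Setd1b and Kat6b, are not in this count. Of all 69 members, 12 gained a call without vehicle replicate 3. Kmt2d ran from −0.1044 to 0.05 over the analyses that left out a library, positive without trametinib replicate 2. Sirt2 ran from −0.0819 to 0.0709, negative without trametinib replicate 1 (−0.0819) and vehicle replicates 2 (−0.0076) and 3 (−0.0354), and was −0.0012 with limma-voom and with no filter and −0.0013 with the replicate block. The replicate block changed no other member call; outside the members it moved complex subunits from 2 higher and 11 lower to 5 and 15, the fallers of other writers and erasers from 4 to 5, proliferation from 0 and 1 to 1 and 2, and T and NK markers from 0 to 1 higher. With the replicate block, 20.5% of all genes were higher and 22.4% lower. Where a call was lost or gained, the cause was not tested.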
